A study of Mus musculus with 14 samples.

Results

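Axon guidance ligands and receptors were examined in the nuclei of neurons from the medial entorhinal cortex, an area of the temporal lobe that holds grid cells, of mice labelled young or aged. The genes were chosen by name: semaphorins of classes 3 to 7, plexins, neuropilins, Eph receptors, ephrins, Robo receptors, Slits, netrins and the netrin receptors Unc5a to Unc5d and Dcc. Of 27781 named gene rows in the deposited table, 67 met the rule, 34 ligands and 33 receptors, and all 67 reached a value of 1 in 7 libraries or more, the filter for the tests. Total RNA of the nuclei was sequenced with SmartSeq libraries, 7 from young and 7 from aged mice. The labels give the age class alone. Age in months, strain, sex and whether libraries came from separate animals were not given in the sources used here, so the p-values measure the spread among these libraries, which may be technical. Values are the authors' normalized values per gene, and the read depth behind them is unknown. Libraries are called by group and title number.

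Guidance molecules steer growing axons, and many of them go on acting at synapses in the adult brain. Semaphorins act through plexins, the secreted class 3 members with a neuropilin as co-receptor. Ephrins are bound to the membrane and activate Eph receptor tyrosine kinases on the neighbouring cell, Slits repel axons through Robo receptors, and netrins attract through Dcc or repel through Unc5 receptors. In the adult entorhinal cortex and hippocampus several of these families shape dendritic spines and synaptic transmission.

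Before any comparison, 2 features of the libraries bear on each value. The libraries formed 2 sets by Xist, the non-coding RNA of the silenced X chromosome. Xist was at 100 or more in young libraries 2 and 3 and aged libraries 3 to 7, called the Xist-positive set, and below 100 in young libraries 11 and 16 to 19 and aged libraries 12 and 13, called the Xist-negative set. The sets also differed in the number of genes above 0, with 21152 to 22812 in Xist-positive and 25263 to 25615 in Xist-negative libraries. The sets hold the age groups unequally, 2 young and 5 aged libraries against 5 young and 2 aged, so each age difference is given from age alone and from a model with the set as a further term. Aged library 3 stood apart from the labelled cortical tissue: Tbr1, which marks deep cortical neurons, was at 3.83 against 75.1 to 768 in the other 13 libraries, and Slc17a6, a glutamate transporter typical of subcortical neurons, at 6241 against 286 to 1956. Several results that rest on aged library 3 are given with and without it.

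The levels of the 67 genes spanned 3 orders of magnitude. Levels are compared between genes only as the mean normalized value per kilobase of merged exons, with exons from GENCODE M21 (mm10); whether reads in introns were counted was not given in the sources used here, and the genes are long, with a median span of 56.6 kb against 13.97 kb over the 26171 gene rows matched to the annotation. Epha6, an EphA receptor kinase at chr16:59653483-60605531, minus strand, had the highest mean level, 5102 per kb, with a range over the 14 libraries of 1921 to 9695. Slit3, a secreted Robo ligand, followed at 3518 per kb (range 1429 to 10369.7), and Efna5, a lipid-anchored ephrin, at 2298 (range 1083 to 4407). These ranges overlapped, so the order of the first 3 is not fixed by the libraries.

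Unc5d and Dcc, a repulsive and an attractive netrin receptor, came next at 2114 and 1933 per kb. Robo1, a Slit receptor, was at 1072 per kb, Slit1 at 1002, Plxna4, a plexin that binds class 3 and class 6 semaphorins, at 999, and Sema6d, a transmembrane semaphorin, at 960.4. Slit3, Slit1 and their receptor Robo1 thus stood among the first 7 levels per kb, whereas the netrins stood lower than Dcc and Unc5d: Ntn1, the founding netrin, was at 176 per kb and Ntn3 at 43.8. The lowest mean levels per kb were those of Sema3b at 4.58, Efna4 at 6.61, Epha2 at 7.96 and Sema3g at 9.35, each listed at 0 in at least 1 aged library. These 4 genes span 4.64 to 28.1 kb, while the first 7 span 143 to 1097 kb. The part of gene span in this order was not tested.

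**Figure D1:**
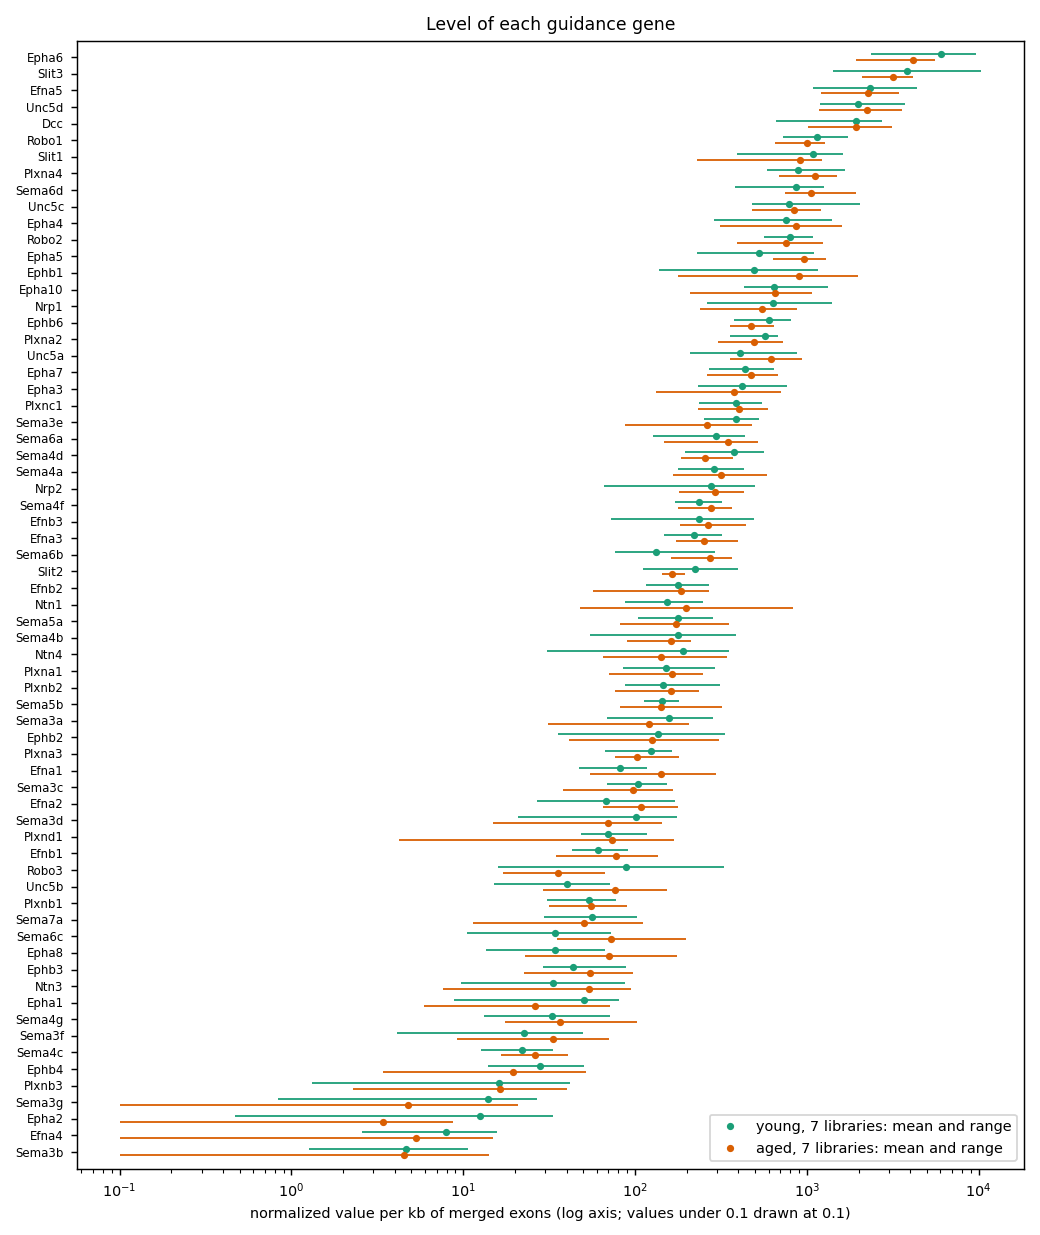
Normalized value per kilobase of merged exons (log axis) for each of the 67 genes, with the mean (point) and range (line) of 7 young and 7 aged libraries. Epha6 at 5102 and Slit3 at 3518 per kb stand at the top, Sema3b at 4.58 at the bottom, and the young and aged ranges overlap for every gene.

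The comparison of young with aged libraries asks which transcripts differ in the nuclei with age. None of the 67 guidance genes passed an adjusted p of 0.05 (limma on log2(value + 1), Benjamini-Hochberg over 24554 genes), neither with age alone, where 0.00407% of all genes passed, nor with the set as a term, where 0.00815% passed. The smallest adjusted p of a guidance gene was 0.182 with age alone and 0.198 with the set (limma). At an unadjusted p under 0.05, age alone gave 4 genes higher in aged libraries (Sema6b, Epha5, Sema6c and Unc5a) against 6.5% of all genes, and 2 lower (Sema3e and Sema4d) against 17.6%. With the set in the model 3 were higher (Sema6b, Epha5 and Unc5b) against 4.03% and 4 lower (Epha10, Plxna2, Robo1 and Robo2) against 9.03%. In these bulk samples fewer cells of a type and less RNA per cell cannot be told apart.

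The signs of the differences were evenly spread with age alone, 34 higher and 33 lower in aged libraries, with a median log2 difference of 0.02, while 37.2% of all genes were higher and their median was -0.25. With the set in the model 21 were higher and 46 lower, with a median of -0.15 beside -0.16 over all genes, of which 37.5% were higher. With libraries scaled to equal totals 32 of the 67 were higher in that model, with a median of -0.02 beside -0.04 over all genes. The sign was the same in both models for 46 of the 67 genes. No guidance gene separated all young from all aged libraries, as 0.212% of all genes did. The test of whether the age difference itself differed between the sets passed for 0 of 67 genes and for 0% of all genes (limma). At an unadjusted p under 0.05 that test gave 4 guidance genes beside 3.62% of all genes, 1 with a more positive age difference in the Xist-positive set (Ntn4, beside 1.35% of all genes) and 3 with a more negative one (Efnb3, Slit3 and Unc5a, beside 2.27%).

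Without aged library 3 the count past the adjusted threshold was again 0 in both models (limma), and at an unadjusted p under 0.05 there were 3 higher and 4 lower genes in each model. The genes were not all the same. With age alone Sema6c and Sema4d left the list, and Ntn1, Epha1 and Sema3g entered it as lower genes. With the set Robo2 left it and Sema5b entered it, also lower. Of all genes 4.38% were then higher and 12.1% lower with age alone, and 3.54% and 9.33% with the set. The median over the 67 genes was then 0.02 with age alone and -0.12 with the set.

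**Figure D2:**
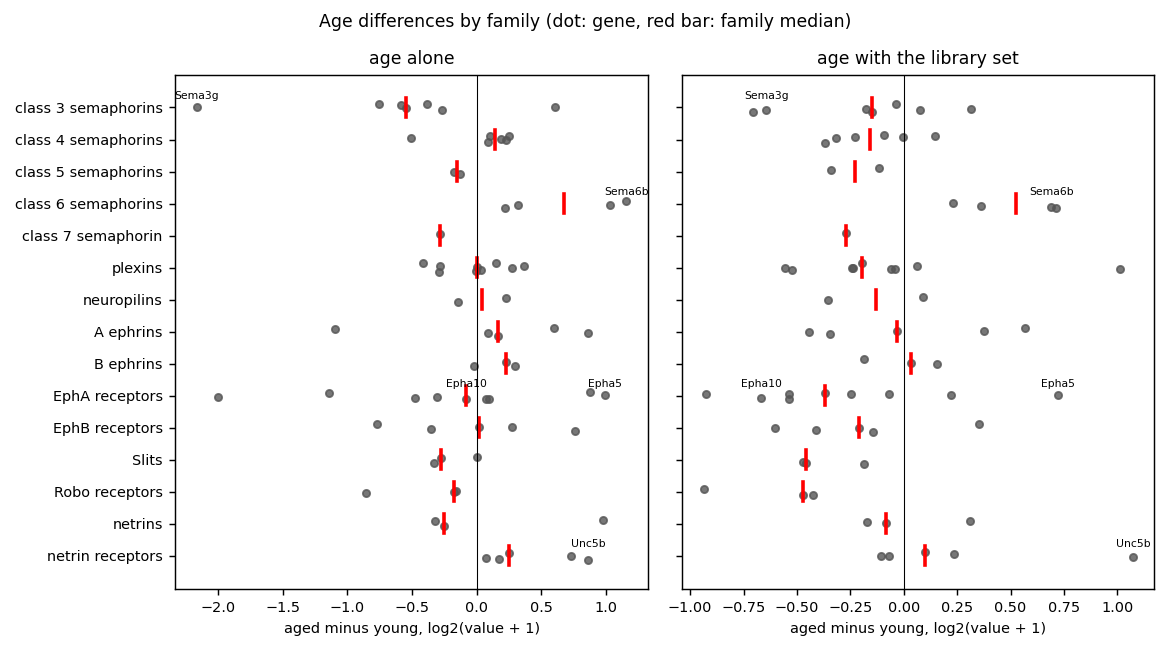
Aged minus young difference on the log2(value + 1) scale for each guidance gene by family, with age alone (left) and with the set as a further term (right); dots are genes and red bars family medians. All 4 class 6 semaphorins lie right of 0 and all 3 Robo receptors left of 0 in both models, with no gene past an adjusted p of 0.05. Of all genes 37.2% were higher with age alone and 37.5% with the set.

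Class 6 semaphorins, transmembrane ligands that bind A-type plexins, all had higher values in aged libraries in both models and within each set, with family medians of 0.68 and 0.53 on the log2 scale. That sign held for 4 of 4 under every scaling and in the model with age alone without any single library, and for 3 of 4 with the set when aged library 12 was left out. Sema6b (chr17:56123085-56140343, minus strand, mm10), a ligand of plexins A2 and A4, carried the smallest p of the 67 genes. In the Xist-negative set the 5 young libraries were at 305, 319, 388, 403 and 389 and the 2 aged libraries at 640.2 and 756. In the Xist-positive set the 2 young libraries were at 719 and 1164 and the 5 aged libraries at 915, 1148, 1379.6, 1334 and 1456. So young and aged values did not overlap within the Xist-negative set, did overlap within the Xist-positive set, and in each age group every Xist-positive value lay above every Xist-negative one. With so few libraries a lack of overlap within a set is common: it was found for 9 of the 67 guidance genes (3 higher and 6 lower in aged libraries) beside 9.88% of all genes in the Xist-negative set, and for 4 (all lower) beside 15.4% in the Xist-positive set.

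The difference for Sema6b was 1.16 ± 0.30 (SE) with age alone and 0.69 ± 0.19 with the set, with adjusted p of 0.182 and 0.198 (limma). Within the sets it was 0.43 for Xist-positive and 0.96 for Xist-negative libraries. The result with age alone depended on single libraries: it passed the adjusted threshold without young library 3 (1.37, adjusted p = 0.0259, limma) and without aged library 12 (1.27, adjusted p = 0.0413), and over the 14 libraries left out in turn the difference ranged from 1.05 to 1.37. In those 2 fits 0.411% and 2.42% of all genes passed in the higher direction. Without aged library 3 it was 1.19 and 0.75 in the 2 models. In the authors' deposited table Sema6b was the only one of 65 guidance genes with an adjusted p that passed 0.05 (log2 fold change 0.67, adjusted p = 0.0243), beside 2.41% of all genes with an adjusted p there and 0.838% in the higher direction.

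Sema6c, a further transmembrane semaphorin, stood nearest to Sema6b in size: the lowest, median and highest values were 62.9, 153 and 432 in young and 209.8, 303 and 1175 in aged libraries. The groups overlapped, and the highest aged value, 1175, was that of aged library 3. Its differences were 1.03 ± 0.44 and 0.71 ± 0.44 (adjusted p = 0.19 and 0.494, limma), or 0.75 and 0.53 without that library. Sema6d had the highest level per kb of the class, and the lowest, median and highest values were 4037, 9719 and 13383 in young and 7856, 9799.5 and 20537 in aged libraries. Here too the highest value came from aged library 3, at 20537, and the differences of 0.32 ± 0.29 and 0.36 ± 0.32 became 0.16 and 0.24 without it. Sema6a, a ligand of plexins A2 and A4, differed by 0.22 ± 0.30 and 0.23 ± 0.33.

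Among the secreted class 3 semaphorins 6 of 7 were lower in aged libraries with age alone and 5 of 7 with the set, or 4 of 7 with equal totals. Most genes went the same way, with 37.2% of all genes higher with age alone and 37.5% with the set. Sema3e, which binds plexin D1 without a neuropilin, had the smallest p and the highest level of the class. For Sema3e the lowest, median and highest values were 2338, 3695 and 4883 in young and 814, 2890.4 and 4439.6 in aged libraries. Aged libraries 6, 7 and 12 were the 3 lowest of all 14, at 1077, 1326 and 814, while aged libraries 3, 4, 5 and 13 lay within the young range. The differences were -0.76 ± 0.35 and -0.70 ± 0.39 (adjusted p = 0.206 and 0.446, limma).

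Of the 6 class 4 semaphorins 5 were higher with age alone and 1 with the set, where equal totals gave 3. Sema4d, the ligand of plexin B1, was the exception with age alone: the lowest, median and highest values were 1507, 2962 and 4319.8 in young and 1421, 1873 and 2857 in aged libraries. All 7 aged values lay below the young median, but the groups overlapped. Its differences were -0.51 ± 0.23 and -0.23 ± 0.19 (adjusted p = 0.198 and 0.611, limma), and it was also lower in the Xist-positive set, as given further on. In class 5, whose members carry thrombospondin repeats, Sema5b differed by -0.13 ± 0.25 and -0.34 ± 0.25, and by -0.35 and -0.48 without aged library 3, which held 2259 against 578 to 941 in the other aged libraries. Sema5a differed by -0.18 ± 0.35 and -0.12 ± 0.38, or by -0.38 and -0.27 without aged library 3. The lipid-anchored Sema7a, a ligand of plexin C1, differed by -0.28 ± 0.45 and -0.27 ± 0.48, or by -0.51 and -0.44 without aged library 3.

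Plexins, the signalling receptors of semaphorins, showed no shared direction with age alone, 4 of 9 higher with a median of -0.00077. With the set 2 of 9 were higher, or 4 with equal totals, and the median was -0.20. Plxna4 had the highest level per kb of the plexins and the lowest, median and highest values were 8219, 10263 and 23381 in young and 9759, 17374 and 21257 in aged libraries. Its difference was 0.36 ± 0.26 with age alone and -0.04 ± 0.15 with the set (adjusted p = 0.363 and 0.925, limma). Plxna2, the receptor of Sema6a and Sema6b, had the smallest p with the set. In the Xist-positive set Plxna2 was at 11649.6 and 10941 in young and 5571, 9975, 12483, 12109 and 7939 in aged libraries. In the Xist-negative set it was at 10971, 9289, 8919, 11197 and 6138 in young and 5232 and 5552 in aged libraries. The 2 aged Xist-negative values lay below all 5 young ones of that set, and aged library 3 was the lowest of its set. The difference with the set was -0.52 ± 0.22 (adjusted p = 0.331, limma), against -0.29 ± 0.24 with age alone, and -0.44 without aged library 3.

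The neuropilins, co-receptors of class 3 semaphorins, differed by -0.14 ± 0.35 and -0.36 ± 0.36 for Nrp1, the co-receptor of Sema3a, and by 0.23 ± 0.38 and 0.09 ± 0.41 for Nrp2, the co-receptor of Sema3f, the first value of each from age alone.

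Among the receptor genes the differences with age alone had EphA receptors at both ends, Epha2 and Epha5, and with the set they ran from -0.94 for Robo3 to 1.07 for Unc5b. Epha5 (chr5:84054761-84417382, minus strand), an EphA kinase that binds A ephrins, was among the genes with the smallest p: the lowest, median and highest values were 3850.4, 6615 and 18415 in young and 10671, 14409 and 21734 in aged libraries. Within the Xist-negative set young libraries were at 12294, 7852, 6557, 6333 and 3850.4 and aged ones at 10671 and 13198. Young library 11 lay between the 2 aged values of that set, so the groups overlapped in each set.

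Epha5 differed by 0.99 ± 0.30 and 0.72 ± 0.28 (adjusted p = 0.182 and 0.309, limma), by 0.66 for Xist-positive and 0.79 for Xist-negative libraries, and by 1.03 and 0.77 without aged library 3. In the authors' deposited table its log2 fold change was 0.60 with an adjusted p of 0.276. With age alone it passed the adjusted threshold when aged library 12 was left out (1.08, adjusted p = 0.046, limma), in the fit where 2.42% of all genes passed in that direction.

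Epha10, whose kinase domain lacks activity, went the other way once the set was in the model. In the Xist-positive set it was at 5263 and 9527 in young and 6259, 5800.4, 5959.9, 7679.9 and 3837 in aged libraries, and in the Xist-negative set at 3492, 4164, 3477, 3109 and 3587 in young and 1498 and 1998 in aged libraries. The aged values of the Xist-negative set lay below all young values of that set, while the Xist-positive values overlapped. The difference was -0.08 ± 0.36 with age alone and -0.67 ± 0.21 with the set (adjusted p = 0.901 and 0.247, limma), and the sign with age alone turned positive without young library 3 (0.11), aged library 12 (0.16) or aged library 13 (0.09). An exon of Epha10 overlaps 1700125G02Rik on the opposite strand, and whether the counting used strand was not given in the sources used here.

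Epha6, the gene with the highest level per kb, overlaps the exons of Gm9017 on the opposite strand, and the lowest, median and highest values were 12450.1, 33326 and 51275 in young and 10159, 24796 and 29571 in aged libraries. The groups overlapped, and the differences were -0.48 ± 0.36 and -0.25 ± 0.36. Of the 9 EphA receptors 4 were higher with age alone and 2 with the set, or 3 with equal totals. Of the 5 EphB receptors, kinases for transmembrane ephrins, 3 and 1 were higher. Ephb6, which also lacks kinase activity, had the smallest p of that family, with 1413, 2173 and 3058 as the lowest, median and highest young and 1347, 1713 and 2438 as the aged values, and differences of -0.35 ± 0.19 and -0.41 ± 0.21 (adjusted p = 0.249 and 0.415, limma). Ephb1, the EphB receptor with the highest level per kb, was at 13868 in aged library 3 and at 965 to 8106 in the other 13 libraries. It differed by 0.76 ± 0.50 and 0.35 ± 0.50, and by 0.51 and 0.21 without that library.

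The ephrins, ligands of these receptors, gave no gene at an unadjusted p under 0.05 in either model. Efna5 was at 4367, 8022 and 17769 in young and 4851, 8985 and 13868 in aged libraries (lowest, median and highest), and differed by 0.09 ± 0.33 and -0.35 ± 0.26. Efna2, a further lipid-anchored ephrin, differed by 0.86 ± 0.42 and 0.57 ± 0.42 (adjusted p = 0.218 and 0.558, limma). The transmembrane Efnb3 and Efnb2 differed by 0.30 ± 0.34 and -0.02 ± 0.31 with age alone and by 0.16 ± 0.36 and -0.18 ± 0.33 with the set.

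All 3 Robo receptors and all 3 Slits had lower values in aged libraries in both models. The medians were -0.17 and -0.27 with age alone, beside -0.25 over all genes, of which 37.2% were higher. With the set they were -0.47 and -0.46, beside -0.16 over all genes, of which 37.5% were higher. For the Robo receptors the lower sign held with the set without any single library and under each scaling. Weighting the libraries by their noise turned Robo1 and Robo2 positive with age alone. Those weights came from the model without the set, so the difference between the sets counted as noise. For the Slits the lower sign was less stable. With age alone 1 of 3 was positive under those weights and without young library 2, 3 or 16 or aged library 3, 5, 12 or 13. With the set 1 of 3 was positive without young library 2 or aged library 3. Without aged library 3 Slit1 differed by 0.03 and 0.03. Robo1 (chr16:72308306-73046095, plus strand) and Robo2, the main Slit receptors of cortical axons, were the members with an unadjusted p under 0.05. In the Xist-positive set Robo1 was at 28533 and 25325 in young and 21000.4, 16939.8, 13237, 15687 and 21009 in aged libraries, without overlap. In the Xist-negative set it was at 15611, 16851, 13407, 12075 and 20786 in young and 10834 and 16504 in aged libraries, with overlap. The difference was -0.17 ± 0.23 with age alone and -0.42 ± 0.19 with the set (adjusted p = 0.648 and 0.369, limma).

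Robo2 showed overlap in the Xist-positive set instead, with 18568 and 15933 in young and 7724, 16067, 15765, 21098 and 13899 in aged libraries, and none in the Xist-negative set, with 14426, 10472, 13939.5, 9611 and 11654 in young and 6659 and 8409 in aged libraries. Aged library 3 was the lowest of its set. The differences were -0.16 ± 0.27 and -0.47 ± 0.22 (adjusted p = 0.717 and 0.378, limma), or -0.06 and -0.37 without aged library 3. Robo3, which guides commissural axons in development, had the largest difference of the family, -0.86 ± 0.51 and -0.94 ± 0.56 (adjusted p = 0.28 and 0.473, limma), with young library 19 at 2259 and the other 13 libraries between 109 and 456. Without young library 19 it was -0.44 and -0.63.

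Slit2, a secreted repellent, had the smallest p of the Slits: the lowest, median and highest values were 2815, 5379 and 10156 in young and 3655, 3987 and 5003 in aged libraries. The aged libraries lay close together within the young range, and the differences were -0.33 ± 0.23 and -0.46 ± 0.24 (adjusted p = 0.354 and 0.428, limma), or -0.17 and -0.18 without young library 2. Slit3 was at 62913 and 29602 in the young and 23412, 21259, 15275, 25302 and 20566 in the aged libraries of the Xist-positive set, without overlap, and at 18139, 20393, 12551, 11236 and 8670.0 and 16828 and 12647 in those of the Xist-negative set, with overlap. Its differences were -0.00010 ± 0.37 with age alone and -0.47 ± 0.28 with the set, -1.05 within the Xist-positive set and 0.11 within the Xist-negative set. Without young library 2, the highest of all 14, they were 0.29 with age alone and -0.12 with the set. The test of that contrast between the sets had an unadjusted p of 0.038 and did not pass after adjustment (adjusted p = 1, limma).

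All 5 netrin receptors were higher in aged libraries with age alone, and 3 with the set. The count with age alone was 4 without young library 19, aged library 3 or aged library 4. With the set it was 5 with equal totals and ranged from 2 (without young library 3 or aged library 12) to 5 (without young library 2). Unc5b, a repulsive receptor that also binds the membrane protein Flrt2, had the smallest p with the set. In the Xist-negative set it was at 415, 210.2, 206, 159 and 225 in young and 957 and 389 in aged libraries. In the Xist-positive set it was at 445 and 94.7 in young and 335, 417, 183, 217 and 872 in aged libraries. Aged libraries 7 and 12 held the highest values and the groups overlapped in both sets. The differences were 0.86 ± 0.42 and 1.07 ± 0.45 (adjusted p = 0.218 and 0.334, limma).

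Unc5a, a neuronal netrin receptor, had the smallest p with age alone: the lowest, median and highest values were 875, 1207 and 3674 in young and 1487, 2309.5 and 3910.2 in aged libraries. Its difference was 0.73 ± 0.33 with age alone and 0.23 ± 0.22 with the set (adjusted p = 0.199 and 0.661, limma), with -0.23 for Xist-positive and 0.70 for Xist-negative libraries. Its exons overlap those of Hk3 on the opposite strand. Unc5d, with the highest level of the family, differed by 0.17 ± 0.29 and 0.10 ± 0.31, and Dcc by 0.07 ± 0.33 and -0.07 ± 0.34.

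Of the netrins Ntn1 was decided by 1 library. Aged library 3 was at 5242, whereas the other aged libraries were at 495, 479, 429, 302, 1104 and 646 and the young libraries ran from 551 to 1554 with a median of 937. The difference was -0.32 ± 0.49 and -0.08 ± 0.53 with all libraries, and -0.80 and -0.44 without aged library 3 (adjusted p = 0.301 and 0.396, limma). Ntn4, a netrin of basement membranes, differed by -0.26 ± 0.52 and 0.31 ± 0.47, or by -0.51 and 0.08 without aged library 3. That library was at 1290 for Ntn4, against 114 to 448 in the other Xist-positive libraries. The more positive age difference of Ntn4 in the Xist-positive set, given above, includes that value. Ntn3 differed by 0.97 ± 0.67 and -0.17 ± 0.29.

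**Figure D3:**
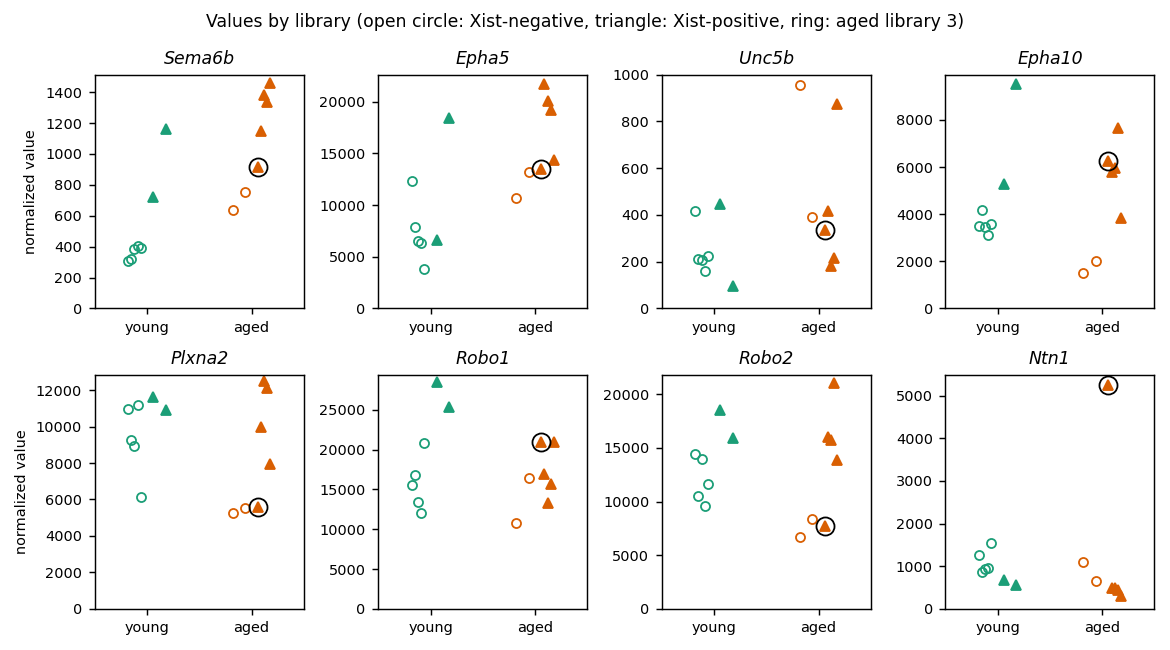
Normalized value in each library for Sema6b, Epha5, Unc5b, Epha10, Plxna2, Robo1, Robo2 and Ntn1 by age group (linear axes from 0); triangles are Xist-positive and open circles Xist-negative libraries, and the ring marks aged library 3. Sema6b runs from 305 to 1164 in young and from 640.2 to 1456 in aged libraries, and Ntn1 reaches 5242 in aged library 3.

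In the authors' deposited table the median log2 fold change of the 67 genes was -0.07, beside -0.16 over all genes. There 22 of the 67 were positive, nearer to the 21 of the model with the set than to the 34 with age alone. At an unadjusted p under 0.05 that table held 3 guidance genes higher and 4 lower in aged libraries, beside 4.29% of all genes higher and 10.2% lower. Its nearest adjusted p after Sema6b was that of Epha10 (log2 fold change -0.68, adjusted p = 0.0932), against differences of -0.08 with age alone and -0.67 with the set.

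The library sets differed in far more guidance genes than age did. With age in the model, 28 of the 67 passed an adjusted p of 0.05 (limma), beside 52% of all genes. Of these 20 were higher in the Xist-positive set (15.5% of all genes were) and 8 were lower (36.5% of all genes were). The difference was positive in 44 of the 67, beside 40.9% of all genes, and its median was 0.33 on the log2 scale, beside -0.30 over all genes. The sign and the split follow the scaling. With libraries scaled to equal totals the median of all genes moved from -0.30 to -0.61. Then 12 guidance genes were higher and 10 lower, beside 1886 higher and 10620 lower of 24561 genes, and the median of the guidance genes was 0.01. The distance between the 2 medians was 0.63 under the deposited scaling and 0.63 with equal totals. Scaling moves the log2 values of all genes in a library by nearly the same amount, so this distance could hardly change and is no check. Among genes with a mean value of 50 or more, 20 of 63 guidance genes were higher and 6 lower, beside 19.7% and 27% of all such genes. The number of genes above 0 also went with the sets, as given above, and its part in these differences was not tested. Sex, handling and any other property that goes with the sets cannot be told apart, since the labels name none.

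Receptors made up 13 of the 20 genes that were higher and 4 of the 8 that were lower. The sets did not overlap for 5 of the 67 genes, beside 27.9% of all genes. Of these Sema3g was lower in the Xist-positive set and 4 were higher. Among those 4, Ntn3 had the largest difference, 2.68 ± 0.29 (adjusted p = 2.54e-06, limma), with 299.6 to 482 among Xist-positive and 38.9 to 92.7 among Xist-negative libraries; its exons overlap those of Tbc1d24 on the same strand and of BC028777 on the opposite strand, so its reads may be shared. Epha8, an EphA kinase, differed by 1.52 ± 0.37 (adjusted p = 0.00275, limma), with 192 to 824 among Xist-positive and 63.8 to 161 among Xist-negative libraries. Plxnb2, a plexin that binds class 4 semaphorins, differed by 1.19 ± 0.19 (adjusted p = 8.61e-05, limma), with 1110.0 to 2422 among Xist-positive and 588 to 994 among Xist-negative libraries, and Plxna4 by 0.94 ± 0.15 (adjusted p = 6.17e-05, limma), with 15618 to 23381 among Xist-positive and 8219 to 10329.5 among Xist-negative libraries. These 4 genes were thus higher in every Xist-positive library, young or aged, than in any Xist-negative one. An exon of Plxna4 overlaps Plxna4os3 on the opposite strand.

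Sema6b was also higher in the Xist-positive set, by 1.09 ± 0.19 (adjusted p = 0.000179, limma), a larger difference than that with age in the same model. Epha4, a receptor for A and B ephrins, differed by 1.48 ± 0.30, Ephb2, a receptor found at excitatory synapses, by 1.45 ± 0.39, Epha10 by 1.37 ± 0.21, Unc5a by 1.16 ± 0.22, Slit3 by 1.10 ± 0.28 and Efna5 by 1.02 ± 0.26, each past the adjusted threshold (limma). Aged library 3 went against its set for Epha4, at 3159 against 7524 to 12859 in the other 6 Xist-positive libraries. Without it the count was 22 higher and 9 lower (limma), beside 16.5% and 38.6% of all genes.

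The 8 genes that were lower in the Xist-positive set included 2 of the 4 with the lowest level per kb, Sema3g and Epha2. Sema3g, a class 3 semaphorin known from vessels, differed by -3.54 ± 0.66 (adjusted p = 0.000289, limma), with 0 to 20.4 among Xist-positive and 23.3 to 121 among Xist-negative libraries and no overlap. Plxnb3, a plexin known from oligodendrocytes, differed by -2.36 ± 0.65 (adjusted p = 0.00582, limma), with 8.58 to 181 among Xist-positive and 65 to 271 among Xist-negative libraries. Epha2 at -2.51 ± 0.998, Sema3d at -2.01 ± 0.37, Epha1 at -1.79 ± 0.48, Ntn4 at -1.32 ± 0.47, Ephb4 at -1.30 ± 0.49 and Sema4d at -0.66 ± 0.19 completed the list. Over the libraries left out in turn the calls of Epha2, Ephb4, Ntn4, Plxna2, Robo1, Robo2, Sema4b, Sema4d and Unc5c were lost in 32 cases in all, with an adjusted p of up to 0.161 for Epha2 and 0.141 for Plxna2 (limma).

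The markers of other cell types were set beside the same split, in which 52% of all genes passed. The summed value of 5 endothelial markers ran from 882 to 2680.5 among Xist-positive and from 1920.3 to 5088 among Xist-negative libraries, with 4 of 5 past the adjusted threshold between the sets (limma). The 6 microglial markers summed to 669 to 1768 and 1492 to 4408, with 3 of 6 past it, the 4 markers of oligodendrocyte precursors to 162 to 956 and 725 to 1624, with 2 of 4, the 6 oligodendrocyte markers to 3135 to 16500.1 and 3148 to 15816, with 2 of 6, and the 6 mural and fibroblast markers to 1350.5 to 2920.4 and 1299 to 5382, with 3 of 6. Over these 5 lists 14 of 27 markers passed, or 51.9%, close to the share of all genes. The ranges of the sums overlapped between the sets in each list, but for the endothelial markers only through aged library 3. Without it the endothelial sums of Xist-positive libraries ran from 882 to 1624, below every Xist-negative sum. Of 6 astrocyte markers, with sums of 6343 to 28598 and 9133 to 14297, and of 5 markers of inhibitory neurons, with sums of 10184 to 35139 and 13935 to 33529.6, 0 passed, nor did the excitatory markers Slc17a7, Slc17a6, Camk2a and Tbr1. Of 4 pan-neuronal markers 1 passed. All markers of these lists were above 0 in all 14 libraries, and none passed the adjusted threshold for age in either model (limma). Their part in the differences of the guidance genes was not tested.

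**Figure D4:**
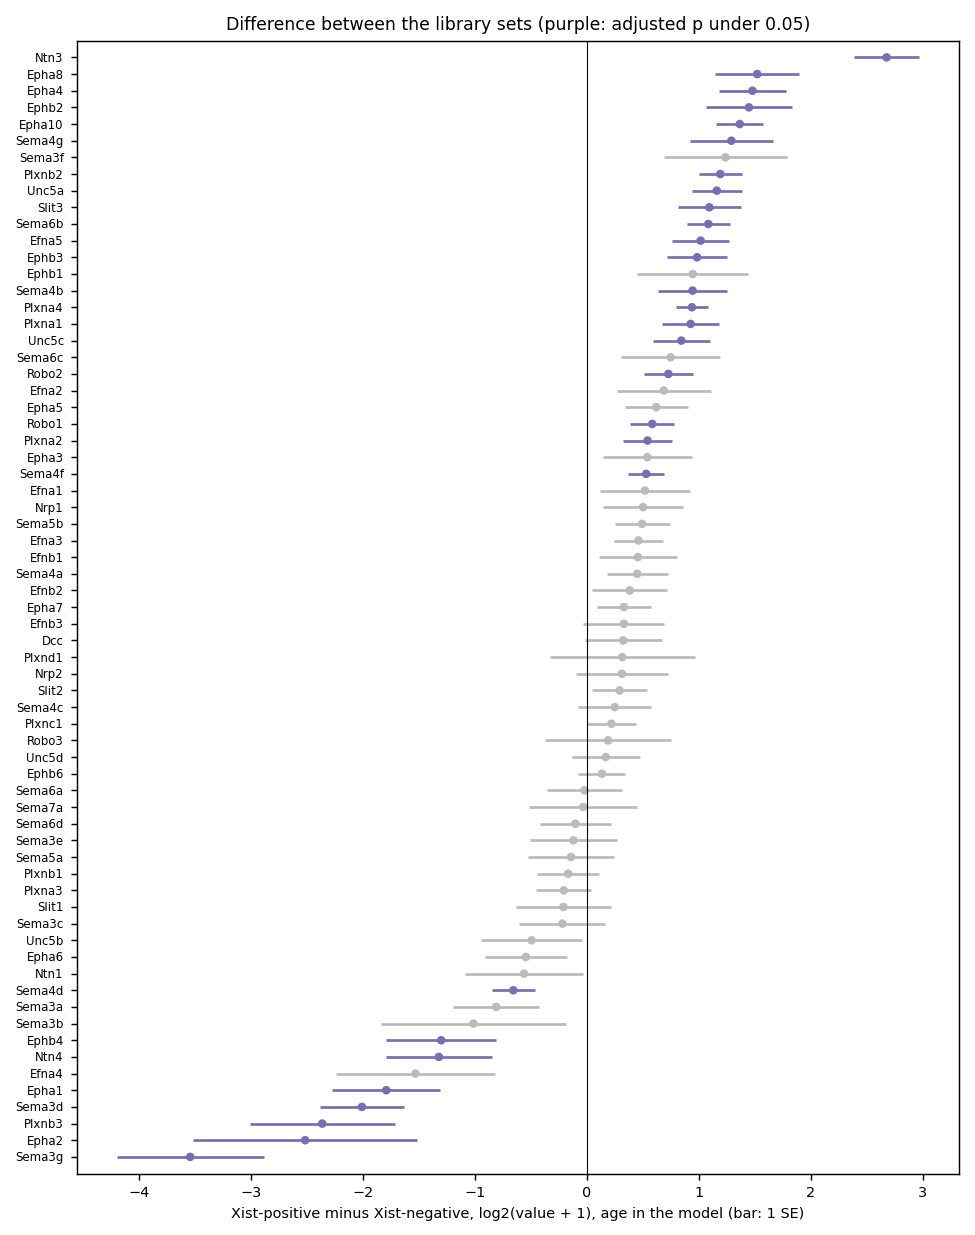
Difference between the Xist-positive and Xist-negative sets on the log2(value + 1) scale with age in the model for each guidance gene (bars: 1 SE; purple: adjusted p under 0.05). Ntn3 stands at 2.68 and Sema3g at -3.54, with 20 genes past the threshold on the right and 8 on the left.

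The promoters of the guidance genes were set beside this split. The sequence from 250 bases before to 50 bases after the outermost start was taken from RefSeq (GRCm38.p6) for the 57 guidance genes that matched by symbol. The number of CG dinucleotides, which read the same on both strands, had a median of 24.5 (range 7 to 56) in the 18 matched genes that were higher. The median was 9 (range 2 to 31) in the 8 that were lower and 23 (range 2 to 42) in the 31 that passed in neither direction, beside 7 over 27025 genes. The letters GGGCGG on either strand, which contain a CG and so overlap that count, were in 75.4% of the 57 promoters and in 35.9% of all 27025. The 4 promoters shown are those of Sema6b and Plxnb2, higher in the Xist-positive set, and of Plxnb3 and Sema3g, lower in it, in lower case with each CG in capitals:
Sema6b: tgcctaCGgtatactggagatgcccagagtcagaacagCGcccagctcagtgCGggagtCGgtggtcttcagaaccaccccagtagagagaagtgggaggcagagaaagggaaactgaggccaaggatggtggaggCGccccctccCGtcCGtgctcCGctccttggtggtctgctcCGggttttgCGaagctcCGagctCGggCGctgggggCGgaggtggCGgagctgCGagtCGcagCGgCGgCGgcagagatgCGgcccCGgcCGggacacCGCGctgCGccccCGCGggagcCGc
Plxnb2: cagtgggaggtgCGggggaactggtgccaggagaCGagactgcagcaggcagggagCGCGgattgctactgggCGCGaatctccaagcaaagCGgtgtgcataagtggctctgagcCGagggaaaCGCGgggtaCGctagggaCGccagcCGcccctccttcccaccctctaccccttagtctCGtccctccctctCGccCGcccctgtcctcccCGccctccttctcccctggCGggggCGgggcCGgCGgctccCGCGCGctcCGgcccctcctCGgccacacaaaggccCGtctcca
Plxnb3: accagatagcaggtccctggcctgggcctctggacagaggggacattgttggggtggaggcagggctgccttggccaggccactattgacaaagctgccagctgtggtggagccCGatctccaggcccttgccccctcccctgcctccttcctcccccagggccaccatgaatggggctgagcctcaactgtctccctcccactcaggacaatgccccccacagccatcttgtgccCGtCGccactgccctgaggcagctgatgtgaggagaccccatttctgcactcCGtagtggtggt
Sema3g: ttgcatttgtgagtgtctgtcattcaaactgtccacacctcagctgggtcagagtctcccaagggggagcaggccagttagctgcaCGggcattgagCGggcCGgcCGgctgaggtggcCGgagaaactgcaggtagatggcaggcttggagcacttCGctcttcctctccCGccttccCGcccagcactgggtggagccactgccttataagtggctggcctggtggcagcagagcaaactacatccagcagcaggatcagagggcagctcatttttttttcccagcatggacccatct

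The Sema6b window (chr17:56140294-56140593, minus strand) holds 29 CG and the Plxnb2 window (chr15:89180739-89181038, minus strand) holds 27, many of them in the last part before and after the start. The Plxnb3 window (chrX:73756853-73757152, plus strand) holds 4 and the Sema3g window (chr14:31217623-31217922, plus strand) holds 8. Other genes went the other way: Ntn4, lower in the Xist-positive set, holds 31 CG, and Sema4f, higher in it, holds 7. The counts describe these windows and are no test of the difference between the sets.

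Within the library sets, young and aged libraries together, aged library 3 deviated in the most guidance genes. It was more than 1 log2 unit from the median of its set in 24 of 67 genes, against 2 to 16 in the other libraries, and was the highest of all 14 in 11 genes and the lowest in 8. Besides Ntn1, Ephb1 and Sema6d, it held the lowest Plxnd1, the receptor of Sema3e, at 31.1 against 282 to 1237 in the other 13 libraries, and the lowest Slit1, at 1353. Over the 67 genes the first principal component held 42.8% of the variance and followed the sets except for aged library 3. On it that library was at 0.761, between the other Xist-positive libraries (-6.54 to -4.58) and the Xist-negative ones (2.61 to 5.51). The second component held 15.2%, with aged library 3 at the end of it. Young library 2 was the highest in 11 genes and young library 19 the lowest in 13.

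**Figure D5:**
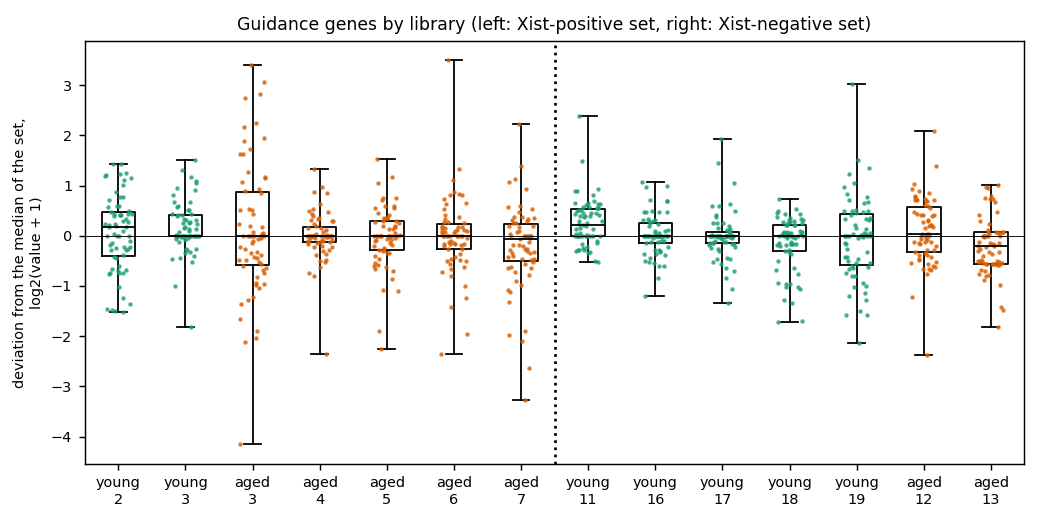
Deviation of each guidance gene from the median of its library set on the log2(value + 1) scale, by library (boxes: quartiles and median; whiskers: full range; dots: genes). Aged library 3 has the widest box, with 24 of 67 genes more than 1 log2 unit from the median of the set.

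Further genes of the pathway gave no call in either model. In the authors' deposited table some of them passed 0.05, as did 2.41% of all genes with an adjusted p there. The number of calls per list in that table is not given. Of 30 other cues and co-receptors none passed the adjusted threshold in either model (limma); at an unadjusted p under 0.05, 4 were higher and 3 lower with age alone, beside 6.5% and 17.6% of all genes, and 2 and 2 with the set, beside 4.03% and 9.03%. The medians were 0.09 and -0.15, beside -0.25 and -0.16 over all genes. Rgmb, a ligand of Neo1, a relative of Dcc, had 549.7, 675 and 1135 as lowest, median and highest young and 844, 1071 and 1911 as aged values, with differences of 0.78 ± 0.21 and 0.57 ± 0.20. Ntng2, a membrane-anchored netrin relative at synapses, differed by -0.54 ± 0.42 and -1.17 ± 0.27 (adjusted p = 0.397 and 0.151, limma), and its adjusted p in the authors' deposited table was 0.0056. Rtn4rl2, a receptor of myelin inhibitors, differed by 2.32 ± 0.84 and 1.76 ± 0.86, and Omg, a myelin inhibitor itself, by 0.55 ± 0.22 and 0.64 ± 0.24.

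Of 63 intracellular effectors none passed in either model (limma); at an unadjusted p under 0.05, 7 were higher and 3 lower with age alone, beside 6.5% and 17.6% of all genes, and 3 higher and 10 lower with the set, beside 4.03% and 9.03%. The medians were 0.08 and -0.17, beside -0.25 and -0.16 over all genes. Trio, a guanine nucleotide exchange factor downstream of Dcc, had 10615, 17348 and 25078 as lowest, median and highest young and 7665, 10464 and 15782 as aged values, and differed by -0.56 ± 0.24 and -0.80 ± 0.21 (adjusted p = 0.189 and 0.182, limma). Kalrn, its close relative, differed by -0.31 ± 0.45 and -0.97 ± 0.28, and Mical3, of a family that acts downstream of plexins, by -0.12 ± 0.33 and -0.66 ± 0.18. The adjusted p of Trio, Kalrn and Mical3 in the authors' deposited table were 0.0206, 0.0419 and 0.037. Of all genes with an adjusted p there 2.41% passed 0.05. Rac1, the small GTPase on which many guidance receptors converge, went the other way, with 348, 734 and 1323 in young and 558, 1659.6 and 2465 in aged libraries (lowest, median and highest) and differences of 1.15 ± 0.33 and 0.72 ± 0.27 (adjusted p = 0.182 and 0.293, limma).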

How the data were processed

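RNA of neuronal nuclei from the medial entorhinal cortex was measured in 7 young and 7 aged libraries, grouped by the labels. The authors deposited 1 table whose library columns hold a normalized signal per gene, per the file headers and the spread of the values; the submitters' processing notes name STAR, kallisto, DESeq2 and mm10 and give neither versions nor roles. A baseMean signal, a log2 fold change with its standard error, a test score and the p-values of the authors' comparison were deposited beside it and were used only where the authors' table is named. The row without a gene name (0.043 to 0.221% of a library) was left out, 27 names turned into dates were not reassigned, and a further row of 1 number per library, named Recording, was not used here. Value columns left unmapped numbered 0. Between 21.2 and 31.7% of low values were whole steps to within 0.05 (10% would be by chance), so reads were not recovered, depth is unknown and the count test planned for counts was replaced.

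limma 3.58.1 (R 4.3.3; lmFit, eBayes with trend) was fitted to log2(value + 1) of the 24554 genes at 1 or more in at least 7 libraries, with age alone, with age and library set, and with their product. P-values were Benjamini-Hochberg adjusted over all genes, with a threshold of 0.05, and the fit was tested on simulated data. Adding 1 understates the change of low genes, and scaling to a typical gene hides a change shared by most. Tables were made with Python 3.11.15, numpy 2.4.6 and pandas 2.3.3.

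The genes, families, other lists and cell type markers, and the sets by Xist at 100, were chosen with earlier results of these data known. Described with full values were, in each family, the genes with the smallest p in either model and the highest level per kb, and genes called in the authors' table; genes named for the sets, for aged library 3 or beside these were chosen after their values were seen. All 67 genes matched GENCODE M21 by symbol. Alternatives covered pseudocount, filter, scaling, sample weights, each set alone and leaving out each library.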

Additional observations from a re-analysis of the deposited data

Results flagged for a closer look

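In 10 of 134 groups of 7 libraries, 1 group per gene and age class, a single library lay far from the nearest of the other 6 relative to the range of the group on the log2 scale; chance gives about 1 in 20 groups. Aged library 3 was that library in 5 of the 10. It was high for Sema4g (886 against 152 to 285 in the other aged libraries), Sema5b (2259 against 578 to 941) and Sema6d (20537 against 7856 to 11640.3). It was low for Slit1 (1353 against 4204 to 7256) and Plxnd1 (31.1 against 282 to 1237). The cortical marker Tbr1 was low in it as well, at 3.83, and its part in these values was not tested.

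The other 5 fell in 5 libraries. Young library 3 was high for Ephb3 (588 against 194 to 284 in the other young libraries), and young library 2 for Unc5c (39037 against 9227 to 14613). Young library 19 was low for Plxna2 (6138 against 8919 to 11649.6). Aged library 12 was high for Plxna3 (1420.3 against 599 to 855 in the other aged libraries), and aged library 13 was low for Sema4b (510.1 against 856 to 1204).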

How the results depend on the processing

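The count of guidance genes past the adjusted threshold was 0 in every alternative with the set and for the product of age and set (limma). With age alone it was 0 except under sample weights and with some single libraries left out. Under sample weights 22 passed, 14 higher and 8 lower, beside 3634 higher (14.8%) and 9414 lower (38.3%) among all genes. These weights were estimated with age as the only term, so the difference between the sets counted as noise. Between the sets 15.5% of all genes were higher and 36.5% lower. With single libraries left out the count ranged from 0 to 2 (1 without young library 3, 2 without aged library 12, where 598 higher and 1779 lower of all genes passed). The median was -0.20 with Xist-positive libraries alone and 0.0015 with Xist-negative ones alone, beside -0.15 and -0.15 over all genes. Of the 11 genes with an unadjusted p under 0.05 in either model, 3 turned with age alone under sample weights: Epha10 to 0.44, Robo1 to 0.0898 and Robo2 to 0.24. Epha10 with age alone ranged from -0.23 to 0.16 over the libraries left out. Between the sets 22 guidance genes passed with equal totals, against 28, beside 1886 higher and 10620 lower of 24561 genes. Over the libraries left out 22 to 31 passed. Without young library 3, which gave 22, 3245 of 25068 genes were higher and 8720 lower. Without aged library 3, which gave 31, 4127 of 25066 were higher and 9685 lower. No paired analysis was possible because the young and aged groups share only 1 number. Count models (DESeq2, edgeR) were not run, since no counts were recovered. Depth is unknown, so what low genes could show is unknown too.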
